A study of Homo sapiens with 15 samples.

Results

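Transcripts of 10 amino acid transporter genes were measured by RNA sequencing in 15 libraries, 3 from each of 5 lines made from the human melanoma line MelJuSo. The genes were taken from a list of names, chosen with earlier results of these data known, and are 10 of the 58721 annotated genes in the count tables (SLC7A5, SLC3A2, SLC7A11, SLC7A1, SLC1A4, SLC1A5, SLC38A1, SLC38A2, SLC6A9 and SLC43A1). All lines express a nuclease-dead Cas12a (dCas12a) carrying a 5xALFA peptide tag, together with a nanobody that binds the tag. In the p65 line with guides, dCas12a is fused to the activation domain VP64, the nanobody to the activation domain p65, and a cassette of guide RNAs directs the complex to CD4. The p65 line without guides has the same proteins and no such cassette. The VP64 line with guides and the VP64 line without guides differ from these in that their nanobody carries VP64. The domain-free line has tagged dCas12a with no VP64, the nanobody alone and no guides, so that the other lines differ from it in both proteins. Cells were scraped at confluency for total RNA. Each condition is 1 derived line, so that the construct and the history of the line cannot be told apart. Whether the replicates A, B and C are separate cultures is not in the labels, so p-values cover the spread between these libraries alone, which may be technical.

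Amino acid transporters of the solute carrier families move amino acids across the plasma membrane. SLC7A5 (LAT1) exchanges glutamine and other internal amino acids for leucine and other large neutral ones, and SLC7A11 (xCT) exchanges internal glutamate for cystine, the source of cysteine for glutathione. Both are light chains that reach the surface bound to the heavy chain SLC3A2 (4F2hc, CD98). Many of these genes are induced by ATF4, a transcription factor made when amino acids run short or the endoplasmic reticulum is stressed, and several are studied in melanoma for their supply of leucine, glutamine and cystine.

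The libraries held 15643705 to 23072512 expected counts. CD4, the guides' target, had 938 to 1035 TPM (transcripts scaled to length and library size) in the p65 line with guides and 900 to 953 in the VP64 line with guides, against 4.88 to 5.61 in the p65 line without guides, 3.94 to 4.69 in the VP64 line without guides and 0.53 to 2.16 in the domain-free line. RELA, whose product contains the p65 domain, had a line mean of 72.3 and 81.1 TPM in the p65 lines with and without guides, 69.5 and 75.4 in the VP64 lines and 65.9 in the domain-free line. Of 8 melanocytic markers, SOX10 and S100B were abundant, with line means of 131 to 218 and 36.8 to 171 TPM, while MLANA was near 0, at line means of 0.03 to 0.21 TPM. Of 6 T cell genes, 3 were at 0 in every library, TRAC had line means of 0.89 to 1.96 TPM and IL7R of 28.0 to 74.8 TPM. Of the 10 transporter genes, 9 had at least 52 counts in every library and were tested, and SLC6A9 had 2 to 10 and was not. Changes are log2 fold changes with the standard error (SE), fitted by edgeR's quasi-likelihood test over all 15 libraries, and adjusted p is Benjamini-Hochberg over 14961 genes with a threshold of 0.05. In bulk RNA, fewer cells that make a transcript and less of it per cell cannot be told apart.

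With guides, the cystine exchanger SLC7A11, the glutamine and alanine carrier SLC38A2 and the heavy chain SLC3A2 rose with both nanobodies, while the arginine and lysine carrier SLC7A1, the glutamine carriers SLC1A5 and SLC38A1 and the leucine exchanger SLC7A5 fell with both. The largest changes of each direction were 0.73 ± 0.08 (SLC7A11, VP64) and -0.67 ± 0.03 (SLC7A1, p65) on the log2 scale. With p65, 3 of the 9 tested genes were higher and 4 lower with guides, where 38.9% of all tested genes were called (18.7% higher and 20.2% lower). With VP64, 5 were higher and 4 lower, where 40.6% of all tested genes were called (19.3% higher and 21.3% lower). The median of the 9 was 0.07 with p65 and 0.10 with VP64, against -0.0095 and -0.0004 over all genes tested.

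Against the domain-free line, SLC7A5 and SLC7A1 were higher and SLC7A11, SLC38A2, SLC43A1, SLC1A4 and SLC38A1 lower in both guide-free lines with activation domains. SLC3A2 was lower in the p65 line, and in the VP64 line its difference was 0.01 ± 0.04 with a 95% confidence interval of -0.08 to 0.09. Of the 9 tested genes, 2 were higher and 6 lower in the p65 line without guides, where 49.7% of all tested genes were called (24.7% higher and 24.9% lower). In the VP64 line without guides 2 were higher and 5 lower, where 47.6% of all tested genes were called (23.6% higher and 24% lower). The medians of the 9 were -0.25 with p65 and -0.18 with VP64, against -0.01 and -0.01 over all genes. The guide-free lines are the baseline of the guide comparisons and the tested side here, and the domain-free line serves both nanobodies, so that these comparisons share libraries and are given side by side.

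**Figure D1:**
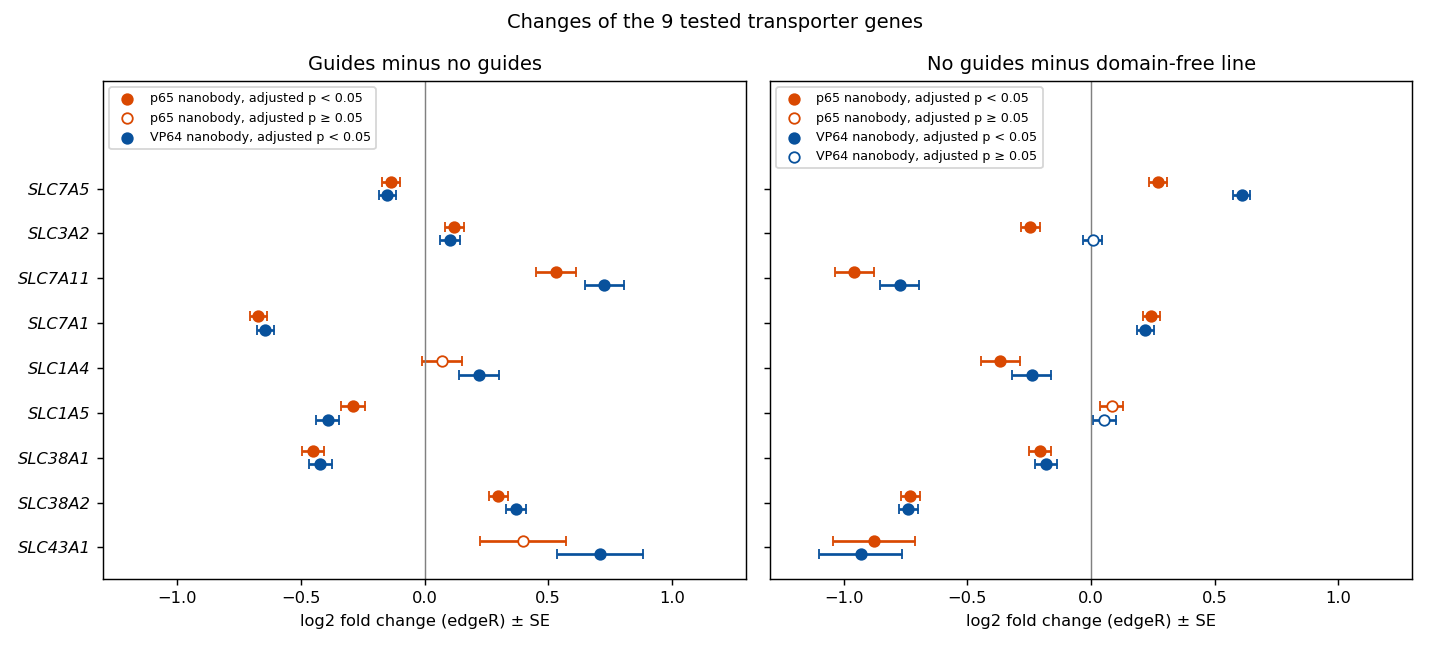
Log2 fold changes (horizontal axis, edgeR, ± SE) of the 9 tested transporter genes with guides against without (left) and without guides against the domain-free line (right), p65 above VP64 for each gene; filled points have an adjusted p under 0.05. SLC7A11 lies at 0.53 and 0.73 in the left panel and at -0.96 and -0.77 in the right one, and SLC7A1 at -0.67 and -0.64 in the left panel and at 0.24 and 0.22 in the right one.

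SLC7A5 encodes the light chain LAT1, which brings in leucine, phenylalanine, tryptophan and other large neutral amino acids (ENSG00000103257.8, hg38, chromosome 16, 87830023 to 87869488, minus strand). Its level was 233, 233 and 224 TPM in the p65 line with guides, against 251, 255 and 261 without. It was 296, 297 and 283 TPM in the VP64 line with guides, against 327, 321 and 318 without, and 205, 211 and 205 in the domain-free line. No 2 lines overlapped, and the order from high to low was VP64 without guides, VP64 with guides, p65 without guides, p65 with guides and domain-free. It was slightly lower with guides for either nanobody, at -0.14 ± 0.04 for p65 (edgeR adjusted p = 0.00385) and -0.15 ± 0.04 for VP64 (adjusted p = 0.00157). Relative to the domain-free line the difference was 0.27 ± 0.04 for p65 (adjusted p = 1.5e-06) and 0.61 ± 0.04 for VP64 (adjusted p = 8.56e-12). Of all tested genes, 16.1% had a larger change in that VP64 comparison.

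SLC3A2 encodes the heavy chain that SLC7A5 and SLC7A11 need to reach the membrane (ENSG00000168003.16, chromosome 11, 62856102 to 62888875, plus strand), and with a line mean of 313 to 400 TPM it was the most abundant of the 10 per length. It had 334, 341 and 337 TPM in the p65 line with guides, against 310, 303 and 326 without. It had 409, 403 and 390 TPM in the VP64 line with guides, against 372, 358 and 362 without, and 358, 338 and 370 in the domain-free line. The libraries with guides lay above those without for each nanobody, by 0.12 ± 0.04 for p65 (adjusted p = 0.0188) and 0.10 ± 0.04 for VP64 (adjusted p = 0.0412). Both calls are weak. Leaving out 1 library gave adjusted p of 0.0579 (p65 without guides A), 0.0614 (p65 without guides B) and 0.111 (p65 with guides B) for p65, and 0.0842, 0.101, 0.0798 and 0.0934 for VP64 (VP64 with guides A and B, and without guides B and C). Compared with the domain-free line it was lower with p65 (-0.25 ± 0.04, adjusted p = 2.27e-05).

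SLC7A11 encodes the cystine and glutamate exchanger xCT (ENSG00000151012.13, chromosome 4, 138164097 to 138242349, minus strand). It had 19.1, 18.9 and 16.9 TPM in the p65 line with guides, against 14.4, 13.3 and 10.9 without. It had 21.1, 26.3 and 25.2 TPM in the VP64 line with guides, against 13.5, 15.1 and 14.2 without, and 24.6, 22.3 and 25.9 in the domain-free line. The VP64 line with guides and the domain-free line overlapped at the top, and the 2 guide-free lines with activation domains overlapped at the bottom. It was higher with guides by 0.53 ± 0.08 with p65 (adjusted p = 1.45e-05) and by 0.73 ± 0.08 with VP64 (adjusted p = 1.84e-07). Set against the domain-free line it was lower by far more than the spread between libraries, at -0.96 ± 0.08 for p65 (adjusted p = 1.66e-09) and -0.77 ± 0.08 for VP64 (adjusted p = 4.61e-08). Of the 9 tested genes it had the widest range of line means, 0.96 on the log2 scale of CPM (library-scaled counts). The overlapping antisense gene SLC7A11-AS1 had 0 to 4 counts per library against 1848 to 4438 for SLC7A11, and the sources used here do not give the strandedness.

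SLC7A1 encodes CAT1, the carrier of the cationic amino acids arginine, lysine and ornithine (ENSG00000139514.12, chromosome 13, 29509410 to 29595688, minus strand). It had 45.6, 46.4 and 46.6 TPM in the p65 line with guides, against 75.2, 74.8 and 73.5 without. It had 45.8, 48.6 and 47.5 TPM in the VP64 line with guides, against 73.5, 72.0 and 73.1 without, and 60.5, 63.4 and 60.3 in the domain-free line. The libraries fell into 3 levels, with the lines with guides lowest, the domain-free line between, and the guide-free lines with activation domains highest. The guide change was -0.67 ± 0.03 with p65 (adjusted p = 1.87e-12) and -0.64 ± 0.03 with VP64 (adjusted p = 6.97e-12), and it differed between the nanobodies by -0.03 ± 0.05, with a 95% interval of -0.13 to 0.07. Relative to the domain-free line it was higher by 0.24 ± 0.03 with p65 (adjusted p = 4.6e-06) and by 0.22 ± 0.03 with VP64 (adjusted p = 1.83e-05).

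SLC1A5 encodes ASCT2, which exchanges glutamine for other small neutral amino acids (ENSG00000105281.12, chromosome 19, 46774883 to 46788594, minus strand). It had 147, 139 and 156 TPM in the p65 line with guides, against 179, 184 and 188 without. It had 145, 140 and 131 TPM in the VP64 line with guides, against 186, 174 and 178 without, and 164, 169 and 176 in the domain-free line. All libraries with guides lay below all others. It fell with guides by 0.29 with p65 (SE 0.05, adjusted p = 3.54e-05) and by 0.39 with VP64 (SE 0.05, adjusted p = 6.72e-07). Its difference from the domain-free line did not pass the threshold, at 0.08 for p65 (95% interval -0.01 to 0.18) and 0.05 for VP64 (-0.04 to 0.15). SLC1A5 had fractional counts in all 15 libraries, which RSEM gives where reads are shared among genes, so that part of its reads is uncertain.

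SLC1A4 encodes ASCT1, which exchanges serine, alanine and other small neutral amino acids (ENSG00000115902.10, chromosome 2, 64988477 to 65023865, plus strand). It had 8.73, 8.10 and 7.52 TPM in the p65 line with guides, against 6.26, 7.08 and 7.33 without. It had 10.7, 9.20 and 9.22 TPM in the VP64 line with guides, against 7.71, 7.77 and 7.72 without, and 8.42, 8.82 and 9.85 in the domain-free line. In TPM the libraries with guides lay above those without for each nanobody, while in CPM those of p65 overlapped. On counts, the guide difference was 0.07 ± 0.08 with p65 (adjusted p = 0.541) and 0.22 ± 0.08 with VP64 (adjusted p = 0.0335). The VP64 call is weak, since adjusted p was 0.129 without VP64 with guides B, 0.0637 without VP64 without guides B and 0.0648 without VP64 without guides C. Compared with the domain-free line it was lower by 0.37 with p65 (SE 0.08, adjusted p = 5.51e-04) and by 0.24 with VP64 (SE 0.08, adjusted p = 0.0158). That VP64 difference had adjusted p of 0.0541, 0.0543 and 0.128 without VP64 without guides B, VP64 without guides C and domain-free C.

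SLC38A1 and SLC38A2 encode SNAT1 and SNAT2, sodium-coupled carriers of glutamine, alanine and other small neutral amino acids, and lie close together on chromosome 12 (ENSG00000111371.15, 46183063 to 46270017, and ENSG00000134294.13, 46358189 to 46372867, both minus strand). They moved in opposite directions with guides. SLC38A1 had 25.1, 26.1 and 26.4 TPM in the p65 line with guides, against 40.9, 35.6 and 33.2 without. It had 25.1, 26.3 and 30.3 TPM in the VP64 line with guides, against 35.8, 36.3 and 38.5 without, and 42.8, 40.8 and 41.3 in the domain-free line. The lines with guides lay below all other libraries, at -0.45 ± 0.05 with p65 (adjusted p = 7.08e-08) and -0.42 ± 0.05 with VP64 (adjusted p = 1.8e-07). Set against the domain-free line the change was -0.21 ± 0.04 for p65 (adjusted p = 5.71e-04) and -0.18 ± 0.04 for VP64 (adjusted p = 0.00198).

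SLC38A2, which is known to be induced when amino acids are withdrawn, had 55.8, 52.9 and 54.5 TPM in the p65 line with guides, against 46.2, 46.3 and 43.5 without. It had 55.5, 58.5 and 61.5 TPM in the VP64 line with guides, against 44.6, 46.4 and 46.7 without, and 71.8, 73.2 and 75.9 in the domain-free line. All domain-free libraries were above all others, and those with guides were above the guide-free ones with activation domains. The guide change was 0.30 ± 0.04 with p65 (adjusted p = 2.97e-06) and 0.37 ± 0.04 with VP64 (adjusted p = 1.61e-07). Relative to the domain-free line the change was -0.73 ± 0.04 for p65 (adjusted p = 2.07e-12) and -0.74 ± 0.04 for VP64 (adjusted p = 2.2e-12).

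SLC43A1 encodes LAT3, a facilitative carrier of leucine and other large neutral amino acids (ENSG00000149150.8, chromosome 11, 57484534 to 57515786, minus strand). It was low, with 83, 69 and 80 counts in the p65 line with guides, against 68, 66 and 61 without. Counts were 91, 87 and 75 in the VP64 line with guides, against 53, 72 and 52 without, and 97, 135 and 132 in the domain-free line. The TPM means were 3.16 ± 0.45 in the p65 line with guides and 2.32 ± 0.39 without, 3.33 ± 0.83 in the VP64 line with guides and 2.34 ± 0.55 without, and 4.02 ± 0.40 in the domain-free line (SD, n = 3 each), and every line overlapped the next one when ordered by its mean. The guide change was 0.40 ± 0.17 with p65 (adjusted p = 0.0748) and 0.71 ± 0.17 with VP64 (adjusted p = 0.00225), and the second was 0.52 with adjusted p = 0.106 when RSEM's effective lengths, which vary between libraries for this gene, entered the fit. Relative to the domain-free line it was lower, at -0.88 ± 0.17 for p65 (adjusted p = 1.44e-04) and -0.93 ± 0.17 for VP64 (adjusted p = 9.23e-05).

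SLC6A9 encodes the glycine carrier GLYT1 (ENSG00000196517.11, chromosome 1, 43991500 to 44031467, minus strand). It had 9, 2 and 4 counts in the p65 line with guides, against 6, 5 and 5 without. Counts were 4, 3 and 5 in the VP64 line with guides, against 5, 4 and 2 without, and 4, 4 and 10 in the domain-free line. At this depth no difference was detectable, and with no filter on low counts the adjusted p was 0.689 or more in every comparison. CCDC24 overlaps it on the opposite strand with 32 to 84 counts.

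**Figure D2:**
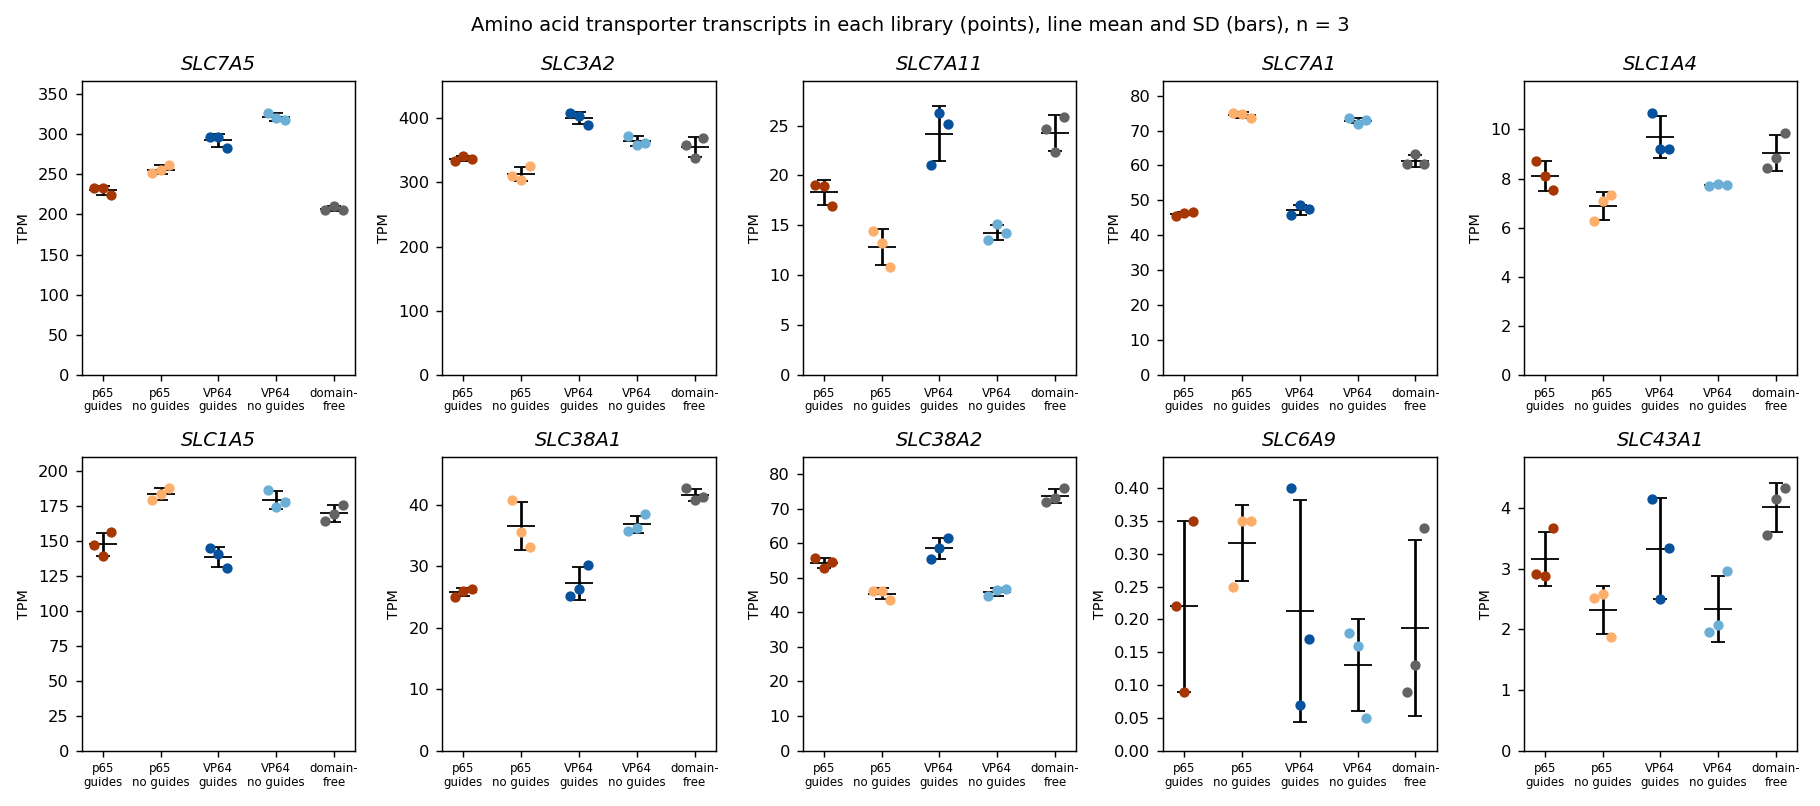
TPM (vertical axes, each from 0) of the 10 transporter genes in every library (points) with the line mean and SD (bars, n = 3), in the p65 lines with and without guides, the VP64 lines with and without guides and the domain-free line. SLC7A1 lies near 46 TPM in the p65 line with guides, 47 in the VP64 line with guides and 73 to 75 in the guide-free lines with activation domains, and SLC6A9 stays at or under 0.40 TPM.

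Within-library ratios show how the make-up of transporter pairs differed. SLC7A5 per SLC3A2, light chain to heavy chain, was 0.683 ± 0.017 in the p65 line with guides and 0.818 ± 0.021 without (SD, n = 3 each). It was 0.730 ± 0.007 in the VP64 line with guides and 0.884 ± 0.011 without, and 0.584 ± 0.035 in the domain-free line. No 2 lines overlapped in this ratio. SLC38A1 per SLC38A2 was 0.475 ± 0.023 in the p65 line with guides and 0.806 ± 0.068 without, 0.465 ± 0.025 in the VP64 line with guides and 0.803 ± 0.021 without, and 0.566 ± 0.027 in the domain-free line. The lines with guides were below the domain-free line and the guide-free lines with activation domains above it. SLC7A11 per SLC3A2 was 0.054 ± 0.004 in the p65 line with guides and 0.041 ± 0.007 without, 0.060 ± 0.008 in the VP64 line with guides and 0.039 ± 0.003 without, and 0.068 ± 0.002 in the domain-free line. SLC1A4 per SLC1A5 was 0.055 ± 0.006 in the p65 line with guides and 0.038 ± 0.002 without, 0.070 ± 0.004 in the VP64 line with guides and 0.043 ± 0.002 without, and 0.053 ± 0.002 in the domain-free line. This ratio depends in part on RSEM's effective lengths, which for SLC1A4 averaged 3710 in the p65 line with guides and 4187 without. On counts, the p65 guide change of SLC1A4 was 0.07 ± 0.08 (SE). The summed level of the 10 genes moved less, at 871 ± 2 TPM in the p65 line with guides and 931 ± 12 without, 1002 ± 18 in the VP64 line with guides and 1045 ± 16 without, and 946 ± 20 in the domain-free line. With 3 libraries against 3, an exact 2-sided permutation test cannot give a p under 0.1, so the ratios are given with no test.

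**Figure D3:**
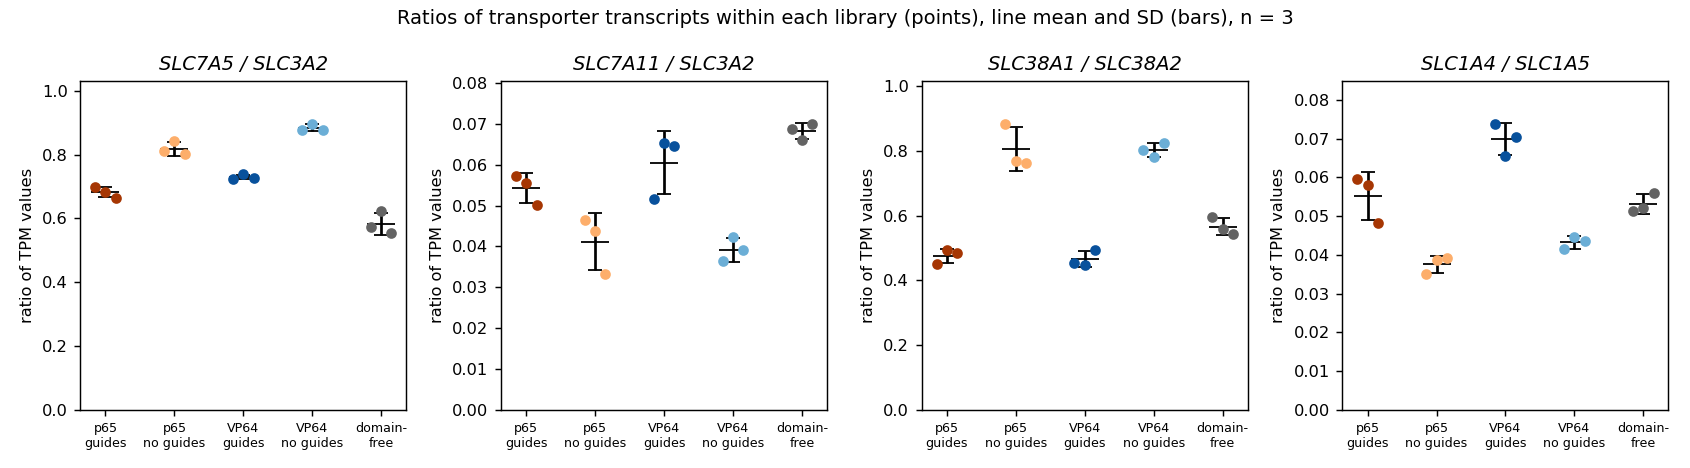
Ratios of TPM values within each library (points; bars are the line mean and SD, n = 3) for 4 transporter pairs, in the p65 lines with and without guides, the VP64 lines with and without guides and the domain-free line; vertical axes start at 0. SLC38A1 per SLC38A2 lies near 0.47 in the lines with guides, near 0.80 in the guide-free lines with activation domains and near 0.57 in the domain-free line.

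Between the nanobodies, of the 9 tested genes only SLC7A5, SLC3A2, SLC7A11 and SLC1A4 passed the threshold by edgeR. Without guides, p65 against VP64 gave 2 called genes of 9, both lower with p65, where 2.11% of all tested genes were called (0.388% higher and 1.72% lower). These were SLC7A5 (-0.34 ± 0.04, adjusted p = 3.59e-06) and its heavy chain SLC3A2 (-0.25 ± 0.04, adjusted p = 6.39e-04). With guides, 4 of 9 were called, all lower with p65, where 7.92% of all tested genes were called (3.72% higher and 4.2% lower). They were SLC7A5 (-0.32 ± 0.04, adjusted p = 2.48e-06), SLC3A2 (-0.23 ± 0.04, adjusted p = 4.67e-04), SLC7A11 (-0.38 ± 0.08, adjusted p = 0.00306) and SLC1A4 (-0.28 ± 0.08, adjusted p = 0.0385). The SLC1A4 call is weak, since its adjusted p was 0.0668, 0.162, 0.0523 and 0.245 without VP64 with guides A, VP64 with guides B, p65 with guides B and p65 with guides C. SLC1A5 differed by 0.13 ± 0.05 (adjusted p = 0.0915) and was called without VP64 with guides A (adjusted p = 0.0255). SLC7A11 without guides differed by -0.19 ± 0.08 (adjusted p = 0.292). SLC7A6, another light chain of SLC3A2 but not among the listed genes, went the other way with guides. It had 77.8 ± 3.2 CPM with p65 and 61.5 ± 2.5 with VP64 (SD, n = 3 each). Without guides it had 88.8 ± 5.7 and 86.2 ± 2.9 CPM. The guide change itself differed between the nanobodies in 0 of the 9 genes by edgeR, where 0.956% of all tested genes were called (0.769% higher and 0.187% lower), with 0 at an unadjusted p under 0.05 and 0 by DESeq2. The 9 differences ran from -0.31 (SLC43A1, 95% interval -0.82 to 0.20) to 0.10 (SLC1A5, -0.03 to 0.24).

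Promoter windows from RefSeq (GRCh38.p14, 250 bases before to 50 after a transcript start) were found for 9 of the 10 genes, 16 windows in all. SLC7A11 had none, so its promoter was not searched. Some genes have more than 1 window, each at its own transcript start. They were searched on both strands for TGATGNAA (the core of the amino acid response element, which ATF4 dimers bind), TGACNNNGC (the core of the antioxidant response element, which NRF2 binds) and CACGTG (the E-box). TGATGNAA was present in 5 of 16 windows (31.2%), 1 each from SLC3A2, SLC7A1, SLC1A4, SLC1A5 and SLC38A1, against 3.62% of all 35116 windows. Only the SLC7A1 match lies in a window that holds the 5′ end of the gene at the coordinates given above. The other matches lie in windows at transcript starts further inside their genes. TGACNNNGC was present in 4 windows (25%) against 13.3% of all, and CACGTG in 3 (18.8%) against 7.26% of all. The windows of SLC3A2 and SLC7A1, which hold the response element and went in opposite directions with guides, of SLC7A5, which holds the other pair of motifs, and of SLC38A2, in which none of the 3 was found, are shown 5′ to 3′ on the gene's strand, with the motif matches in capitals. They are chr11:62881449-62881748 (plus strand), chr13:29595639-29595938, chr16:87869458-87869757 and chr12:46372724-46373023 (minus strand). This SLC3A2 window lies inside the gene, and the window at the gene's 5′ end (chr11:62855859-62856158) held none of the 3 motifs.
SLC3A2: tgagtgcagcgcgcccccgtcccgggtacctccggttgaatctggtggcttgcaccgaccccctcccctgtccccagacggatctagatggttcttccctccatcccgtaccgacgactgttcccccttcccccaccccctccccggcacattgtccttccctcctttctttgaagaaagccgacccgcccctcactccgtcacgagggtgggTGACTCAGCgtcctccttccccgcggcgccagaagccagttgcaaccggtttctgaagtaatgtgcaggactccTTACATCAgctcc
SLC7A1: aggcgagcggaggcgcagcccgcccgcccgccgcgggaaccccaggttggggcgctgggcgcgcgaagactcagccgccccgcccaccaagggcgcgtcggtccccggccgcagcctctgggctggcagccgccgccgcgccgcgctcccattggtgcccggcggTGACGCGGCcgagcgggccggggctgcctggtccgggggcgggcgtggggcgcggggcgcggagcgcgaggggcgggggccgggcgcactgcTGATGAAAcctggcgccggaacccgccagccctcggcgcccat
SLC7A5: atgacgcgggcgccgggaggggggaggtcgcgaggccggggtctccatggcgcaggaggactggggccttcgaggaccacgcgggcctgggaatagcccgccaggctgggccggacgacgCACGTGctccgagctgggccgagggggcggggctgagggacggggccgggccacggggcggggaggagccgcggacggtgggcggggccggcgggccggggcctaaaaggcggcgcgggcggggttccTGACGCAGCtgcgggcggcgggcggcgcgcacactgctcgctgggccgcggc
SLC38A2: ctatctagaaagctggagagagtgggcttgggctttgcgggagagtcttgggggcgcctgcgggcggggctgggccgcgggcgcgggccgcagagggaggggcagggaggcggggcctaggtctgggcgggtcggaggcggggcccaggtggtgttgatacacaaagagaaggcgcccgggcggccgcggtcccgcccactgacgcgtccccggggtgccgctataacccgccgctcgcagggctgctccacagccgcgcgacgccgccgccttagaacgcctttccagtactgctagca
In the SLC3A2 window the response element match is TTACATCA, read on the opposite strand, 37 bases after the transcript start. In SLC7A1 it is TGATGAAA, 7 bases after the start. Both also hold a TGACNNNGC match, TGACTCAGC 37 bases and TGACGCGGC 85 bases before the start. SLC7A5 holds TGACGCAGC 2 bases and CACGTG 130 bases before its start. A match is a description of letters and not a bound site.

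Genes of the amino acid response were followed beside the transporters, as a list of ATF4, its partners and targets, all 24 tested. With guides 7 were higher and 3 lower with p65, and 7 higher and 3 lower with VP64, with medians of 0.01 and 0.16. Taken in either direction, these counts are near the share over all tested genes, 38.9% with p65 and 40.6% with VP64. By direction, 18.7% and 19.3% of all tested genes were higher and 20.2% and 21.3% lower with p65 and VP64. Compared with the domain-free line 2 were higher and 17 lower with p65, where 24.7% of all tested genes were higher and 24.9% lower. With VP64 2 were higher and 15 lower, where 23.6% of all were higher and 24% lower. The medians were -0.51 and -0.44 on the log2 scale. ATF4 itself had 122 ± 6 TPM in the p65 line with guides and 131 ± 3 without, 128 ± 3 in the VP64 line with guides and 137 ± 1 without, and 232 ± 10 in the domain-free line. Its change against the domain-free line was -0.87 ± 0.04 with p65 (adjusted p = 1.49e-13) and -0.80 ± 0.04 with VP64 (adjusted p = 8.57e-13), while its guide changes of -0.08 and -0.10 did not pass (adjusted p = 0.118 and 0.0538). DDIT3, which encodes the stress factor CHOP, had -2.26 ± 0.09 with p65 and -2.24 ± 0.09 with VP64 against the domain-free line, and 0.44 ± 0.10 and 0.58 ± 0.10 with guides. DDIT4, an inhibitor of mTORC1 signalling, rose with guides by 1.90 ± 0.07 with p65 and 2.10 ± 0.07 with VP64, and TRIB3, a pseudokinase that restrains ATF4, by 0.29 ± 0.07 and 0.40 ± 0.07. Set against the domain-free line DDIT4 changed by -2.06 ± 0.07 and -1.82 ± 0.07 and TRIB3 by -1.33 ± 0.07 and -1.25 ± 0.07 with p65 and VP64.

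Of 28 other plasma membrane and lysosomal transporters, listed as carriers of amino acids or related compounds, 20 were tested. With guides 4 were higher and 3 lower with p65, and 5 higher and 3 lower with VP64, near the 38.9% and 40.6% over all tested genes, with medians of 0.13 and 0.14. Relative to the domain-free line 5 were higher and 7 lower with p65, and 2 higher and 7 lower with VP64, with medians of -0.16 and -0.10. Over all tested genes, 49.7% were called with p65 (24.7% higher and 24.9% lower) and 47.6% with VP64 (23.6% higher and 24% lower). SLC7A6, another light chain of SLC3A2, which exchanges arginine for neutral amino acids, moved as SLC7A1 did in sign, with guide changes of -0.19 ± 0.05 with p65 and -0.49 ± 0.06 with VP64, and differences from the domain-free line of 0.61 ± 0.06 and 0.57 ± 0.06. SLC6A6, the taurine carrier, had guide changes of 0.40 ± 0.05 and 0.32 ± 0.05, and differences from the domain-free line of -0.80 ± 0.05 and -0.67 ± 0.05. SLC38A10 was higher than in the domain-free line by 0.56 ± 0.04 with p65 and 0.70 ± 0.04 with VP64. SLC6A15, a carrier of branched-chain amino acids and proline, was lower by 0.61 and 0.38, with SE of 0.09 each (adjusted p = 5.64e-06 and 9.31e-04).

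Around cystine import, 12 genes listed for glutathione synthesis and use were tested, with thioredoxin reductase (TXNRD1) among them. With guides 4 were higher and 3 lower with p65, and 5 higher and 3 lower with VP64, with medians of 0.03 and 0.14, where 38.9% and 40.6% of all tested genes were called. Compared with the domain-free line 2 were higher and 4 lower with p65, and 0 higher and 7 lower with VP64, with medians of -0.18 and -0.25. Over all tested genes, 49.7% were called with p65 (24.7% higher and 24.9% lower) and 47.6% with VP64 (23.6% higher and 24% lower). GCLM, the regulatory subunit of the enzyme that makes gamma-glutamylcysteine, fell with guides by 0.68 with p65 and 0.43 with VP64 (SE 0.06 each), opposite in sign to SLC7A11. CHAC1, which breaks glutathione down, was lower than in the domain-free line by 1.29 with p65 and 1.37 with VP64 (SE 0.17 each). TXNRD1, thioredoxin reductase, differed from the domain-free line by -0.50 ± 0.04 and -0.47 ± 0.04. GGCT, gamma-glutamylcyclotransferase, fell with guides by 0.25 with p65 and 0.33 with VP64 (SE 0.05 each).

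Of 25 genes of mTORC1 and of amino acid sensing upstream of it, all tested, 7 were higher and 1 lower with guides with p65. With VP64, 8 were higher and 2 lower, and the medians were 0.13 with p65 and 0.15 with VP64. Over all tested genes, 38.9% were called with p65 (18.7% higher and 20.2% lower) and 40.6% with VP64 (19.3% higher and 21.3% lower). Set against the domain-free line 7 were higher and 6 lower with p65, and 6 higher and 5 lower with VP64, beside 49.7% and 47.6% called over all tested genes, with medians of -0.03 and 0.01. RRAGD, a Rag GTPase, rose with guides by 0.38 ± 0.05 with p65 and 0.37 ± 0.05 with VP64. FLCN, which acts on the Rag GTPases, rose by 0.46 ± 0.07 and 0.31 ± 0.07, and BMT2 (SAMTOR), a sensor of S-adenosylmethionine, by 0.46 ± 0.09 and 0.56 ± 0.10. SESN1, a sestrin, was higher than in the domain-free line by 0.75 ± 0.07 with p65 and 0.64 ± 0.07 with VP64.

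**Figure D4:**
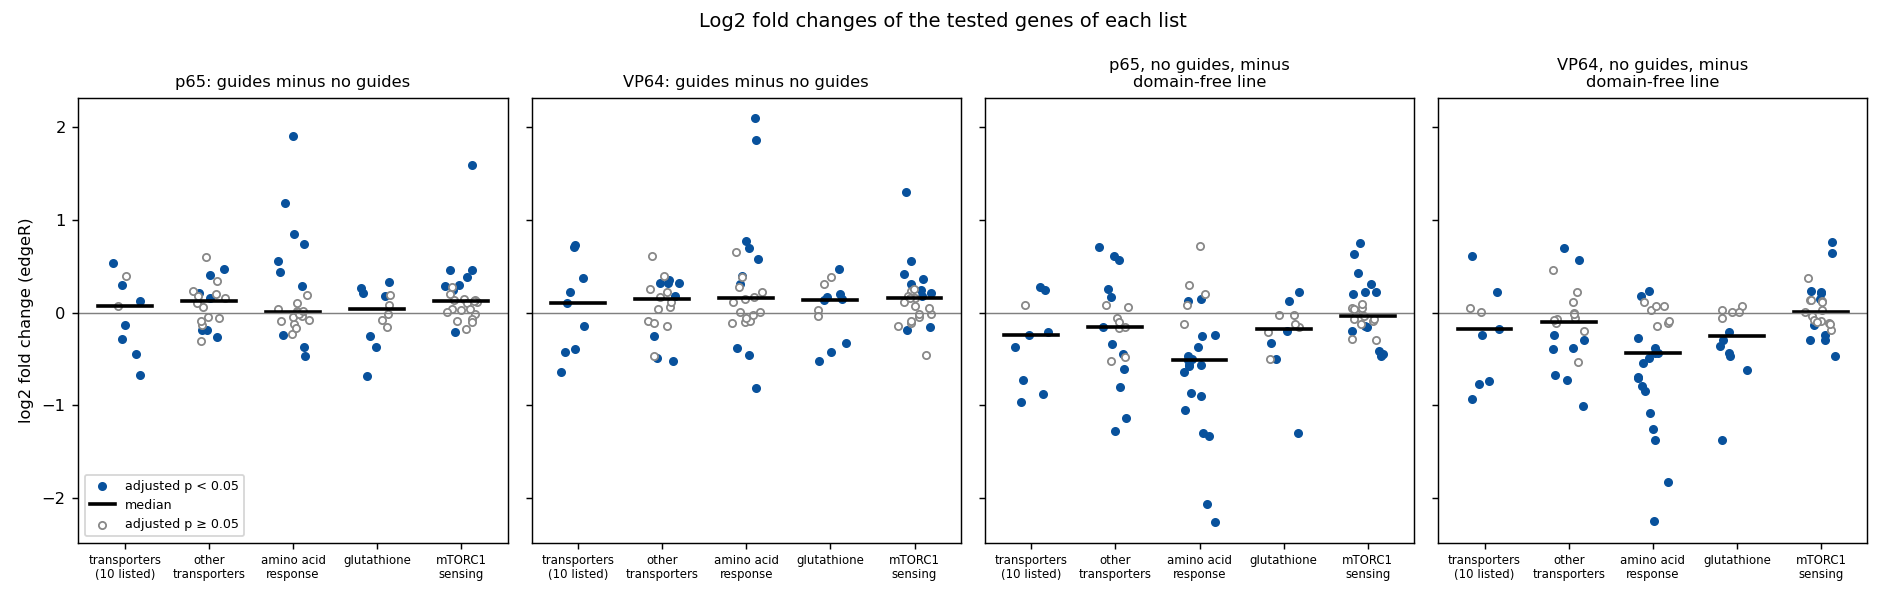
Log2 fold changes (vertical axis, edgeR) of the tested genes of the 10 listed transporters and of 4 related lists in 4 comparisons; filled points have an adjusted p under 0.05, open points do not, and black lines are medians. In the amino acid response list the medians against the domain-free line lie at -0.51 for p65 and -0.44 for VP64, and with guides at 0.01 and 0.16.

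Some melanocytic markers and IL7R moved with the guide comparisons. The 8 melanocytic genes summed to 284 to 372 TPM in the p65 line with guides, against 191 to 209 without. They summed to 401 to 475 TPM in the VP64 line with guides, against 213 to 233 without, and 214 to 222 in the domain-free line. SOX10 and S100B carried most of this sum, with line means of 179 and 126 TPM in the p65 line with guides, against 131 and 45.1 without, and 218 and 171 in the VP64 line with guides, against 146 and 54.8 without. Of the 7 tested, 4 were higher and 1 lower with guides with p65, and 5 higher and 0 lower with VP64. Over all tested genes, 38.9% were called with p65 (18.7% higher and 20.2% lower) and 40.6% with VP64 (19.3% higher and 21.3% lower). S100B (1.51 and 1.65 on the log2 scale with p65 and VP64), ERBB3 (1.02 and 1.59) and SOX10 (0.45 and 0.54) rose with both. MITF differed by 0.04 and 0.11, which did not pass the threshold (adjusted p = 0.823 and 0.526). DCT fell by 0.68 with p65 (adjusted p = 0.00166) and differed by 0.41 with VP64 (adjusted p = 0.0558). The 6 T cell genes summed to 41.2 to 54.2 TPM in the p65 line with guides, against 72.9 to 79.9 without, to 42.0 to 43.6 in the VP64 line with guides, against 72.4 to 79.0 without, and to 29.5 to 30.7 in the domain-free line, with 3 of them at 0 in all libraries and IL7R carrying most of the sum. The 6 myeloid genes summed to 7.11 to 15.6 TPM in the lines with activation domains and 20.2 to 24.7 in the domain-free line, the 6 epithelial genes to 61.6 to 87.2 and the 6 genes of fibroblasts and endothelium to 1.49 to 3.51 over all lines. With guides, the called genes were 0 of 6 myeloid, 1 of 6 epithelial and 1 of the 3 tested genes of fibroblasts and endothelium with p65, and 1, 1 and 0 with VP64. Their part in the transporter changes was not tested.

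For the 3 transporters with the widest range of line means, the genes with the most similar profile were sought by Pearson's r of log2 CPM over the 15 libraries, which are 5 lines of 3, so that differences between lines carry these values. For SLC7A11 they were FMNL2 (0.98), ARHGAP12 (0.97) and MAP4K4 (0.97). For SLC38A2 they were FBXL6, HSPA5 and HSP90B1 (0.99 each), and for SLC43A1 they were ZBTB17 (0.95), CBR3 (0.94) and TMEM158 (0.92).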

How the data were processed

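Total RNA of 15 libraries was sequenced, 3 from each of 5 MelJuSo lines. Per the submitters' processing notes, reads were processed with STAR and RSEM on hg38. The sources used here give neither versions nor strandedness. The deposited expected counts are RSEM's estimated reads per gene, per the file headers, and TPM values were deposited beside them. The deposited effective lengths, another unit, are the authors' RSEM lengths and entered 1 alternative. The libraries held 15643705 to 23072512 expected counts, and 92 spike-in entries with 0 to 7 counts were left out. Intervals cover the spread between libraries only.

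Expected counts were rounded, and edgeR 4.0.16 (R 4.3.3) fitted all 15 libraries together by quasi-likelihood with a coefficient for each line, TMM normalization (factors 0.983 to 1.014) and filterByExpr at a minimum count of 10. This left 14961 genes for 7 comparisons, with Benjamini-Hochberg adjustment and a threshold of 0.05. Log2 CPM (library-scaled counts) used a prior count of 2. Gene identifiers were matched to GENCODE release 29. Alternatives were DESeq2 1.42.0 size factors and Wald test, other filters, unrounded counts, an effective-length offset, a fit of the compared libraries alone, a replicate block by letter and leaving out each library.

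All 10 genes are named in every comparison where tested, with CD4 and RELA as checks. The 4 related lists each gave up to 4 named genes. These had the smallest p over the guide comparisons and those against the line without an activation domain. The cell type markers named in the text were not picked by this rule. The genes and lists were chosen with earlier results of these data known.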

Additional observations from a re-analysis of the deposited data

Results flagged for a closer look

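The difference between each guide-free line with activation domains and the domain-free line was not the same for p65 and VP64 in 2 transporter genes, by edgeR's test of the difference itself. For SLC7A5 the difference from the domain-free line was 0.27 with p65 and 0.61 with VP64 on the log2 scale, and the p65 value minus the VP64 value was -0.3381. For SLC3A2 it was -0.25 with p65 and 0.01 with VP64, and the p65 value minus the VP64 value was -0.2518. The domain-free line cancels in this difference, which is that of p65 against VP64 without guides.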

How the results depend on the processing

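The counts of called transporter genes stayed within 1.5 times their value in all 7 comparisons under every alternative run. With the replicate letter as a block, 7 genes were called with guides for p65 and 8 for VP64, SLC3A2 being the one that no longer passed (0.1035, adjusted p = 0.0602), and SLC1A4 no longer passed for p65 against VP64 with guides (-0.2747, adjusted p = 0.0563). The 30 same-letter correlations of deviations ran from -0.073 to 0.064, and the 60 between different letters from -0.088 to 0.063. No pattern shared by a letter was seen, which does not settle whether the letters pair the libraries. Over single genes and comparisons, 886 values kept their direction and side of the threshold, 23 lost a call, 3 gained one and 24 changed sign. All sign changes were in uncalled values near 0. For SLC7A1, p65 against VP64 with guides was 0.0008 with DESeq2 size factors and 0.0005 by the DESeq2 Wald test. With the effective-length offset, SLC38A2 was -0.0197 for p65 against VP64 without guides and SLC3A2 -0.0118 for the difference of guide changes. Leaving out 1 library gave -0.0175 to 0.01 for SLC7A1 between the nanobodies with guides, and -0.0126 to 0.0387 for SLC3A2 with VP64 against the domain-free line. Without guides, p65 against VP64 then gave -0.0099 to 0.0212 for SLC38A2, -0.0306 to 0.2067 for SLC43A1, -0.003 to 0.0573 for SLC1A5 and -0.0658 to 0.0102 for SLC38A1. The difference of guide changes then gave -0.0189 to 0.0398 for SLC7A5, -0.0087 to 0.0457 for SLC3A2 and -0.0718 to 0.008 for SLC38A1. Without a filter on low counts, SLC3A2 with VP64 guides had an adjusted p of 0.0674, and SLC7A11 passed for p65 against VP64 without guides (-0.19, adjusted p = 0.0093). SLC1A4 for p65 against VP64 with guides had an adjusted p of 0.221 with the length offset and 0.091 in a fit of only the libraries compared, and SLC1A5 passed there by DESeq2 (0.14, adjusted p = 0.0368). Counts over all genes varied more. Called genes were 315 for p65 against VP64 without guides, 545 without the filter and 109 with the length offset, 1185 with guides, 437 with the offset and 706 in a fit of only the libraries compared, and 143 for the difference of guide changes, 360 without the filter, 247 by DESeq2 and 31 with the offset. The causes were not tested. At this depth SLC6A9 and SLC43A1 had few counts, which limits what they can show.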
